A study of Mus musculus with 11 samples.

Results

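The genes described here encode proteins of respiratory complexes II to V, and were measured in the ventricles of mice with an enlarged heart. They were chosen by gene symbol, as all array genes whose symbol begins with Sdha to Sdhd or Sdhaf, Uqcr, Cox followed by a digit, Cyc1, Cycs or Atp5. The rule found 42 of the 8106 named genes that were tested, on 82 spots. They are 4 subunits of complex II, 7 of complex III, cytochrome c (Cycs), 10 of complex IV, 15 of complex V, and 5 genes that help to build or join complexes (Sdhaf2, Cox10, Cox14, Cox19 and Cox7a2l). All 42 had enough values to be tested. A further 4 spot annotations named such a gene together with other genes and were left out. No subunit encoded by mitochondrial DNA was measured (0 genes), so all members are nuclear genes.

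The respiratory chain passes electrons from nutrients to oxygen in the inner mitochondrial membrane. Complex II takes them from succinate, complex III hands them to the small carrier cytochrome c, and complex IV passes them on to oxygen, while complexes III and IV pump protons. Complex V, the ATP synthase, lets the protons flow back through a rotating ring of c subunits and makes ATP, on which the beating heart depends.

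The ventricles (right, left and septum) came from 12 male C57/BL6 mice of the TG1306/1R line at about 60 weeks of age, 4 in each of 3 groups. WT mice were littermates without the transgene (-/-). Hyp and Dil mice were heterozygous for the transgene, which overexpresses angiotensinogen in the heart, and had a concentrically hypertrophied heart (Hyp) or a dilated one (Dil). Carrier hearts had been assigned by genotype, chamber shape, cardiac weight index and hypertrophic marker expression, so the groups differ by selection as well as by outcome. The cardiac weight index relates heart to body weight and was 4.2 to 4.9 mg/g in WT, 5.3 to 5.8 mg/g in Hyp and 7.8 to 9.2 mg/g in Dil mice. The labels give Hyp3 an index of 5.3 mg/g on its array with WT3 and of 5.6 mg/g on its array with Dil3. It was taken as 1 mouse by its name, and whether these are 2 animals cannot be told from the labels. Both carrier groups share the transgene, so their comparison with WT holds transgene and heart shape together.

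Mice bear the numbers 1 to 4 in each group, and mice of the same number are called a set. Each of 11 arrays with 2 dyes compared 2 mice of a set: 4 arrays compared Hyp with WT, 3 Dil with WT and 4 Dil with Hyp, and the array of WT2 with Dil2 is not analysed here. A value is the log of the ratio between the 2 mice, taken as log2 since no source used here names the base. It holds no level of its own, and the tissue could not be checked by the level of its markers. The fitted change of a gene between groups uses all arrays and a term for the dye, and is given with its standard error (SE, 4 mice per group). A set value is the change in 1 set with the fitted dye term removed. In set 2 the Dil minus WT value rests wholly on the 2 arrays that carry Hyp2, with no direct array beside them. A gene is called where limma's adjusted p over all 12097 features is under 0.05. The direction of the ratio is likely rather than stated: taken as Cy5 over Cy3, it puts Nppb, a marker of cardiac strain, 2.53 ± 0.32 higher in Dil and 1.02 ± 0.30 higher in Hyp than in WT, and Agt, the angiotensinogen gene, 2.15 ± 0.40 and 2.09 ± 0.40 higher. With the opposite direction every sign here would turn. The arrays differed in the spread of their ratios (scaled median absolute deviation 0.115 to 0.354), which was widest on the Dil and WT arrays of sets 3 and 4.

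Dil against WT hearts showed the largest differences of these genes. The median fitted change of the 42 members was -0.30 on the log2 scale, against 0.00 over all features, and 38 of 42 lay below 0, against 48.9% of all features. In all, 5 members fell, the complex IV subunits Cox6c, Cox6b2, Cox7c and Cox4i1 and the complex V subunit Atp5e, by 1.31-fold to 1.55-fold. Over all features 1.15% were called lower. Only 1 member rose, Cox19, a copper-handling assembly factor of complex IV, by 1.31-fold, where 1.00% of features were called higher. In bulk tissue, fewer cells of a type and less RNA per cell cannot be told apart.

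**Figure D1:**
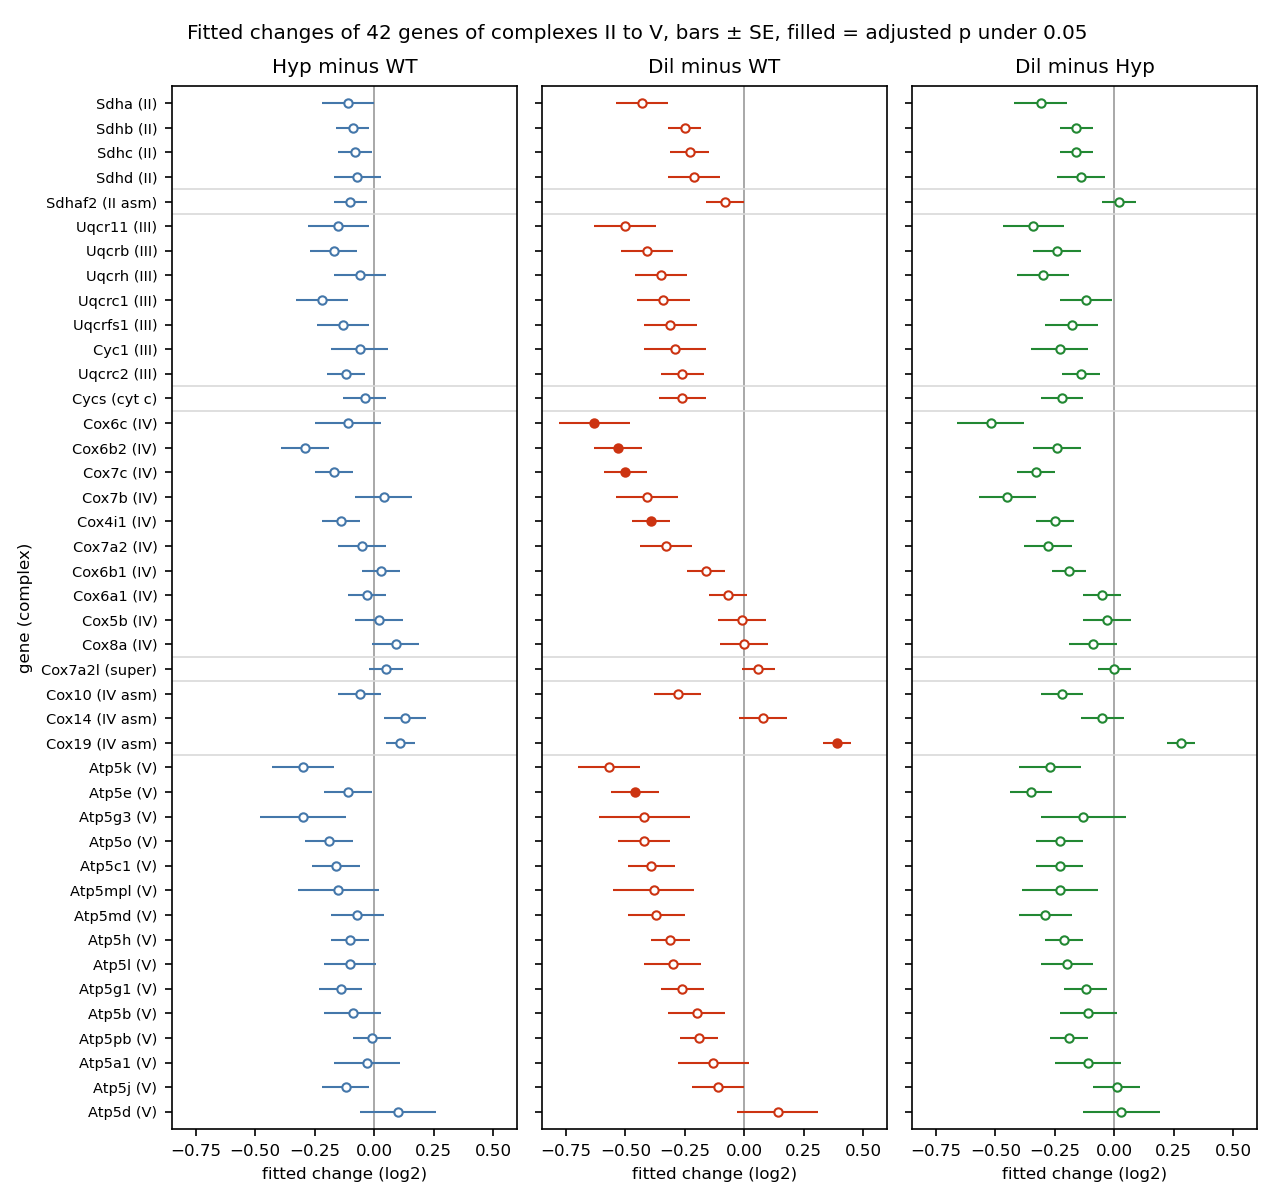
Fitted log2 change (horizontal axis) of each of the 42 genes, grouped by complex (asm, assembly factor; super, supercomplex factor), in the 3 group comparisons; bars are ± 1 SE and filled points are called at an adjusted p under 0.05. In Dil minus WT nearly all subunits lie left of 0 and Cox19 lies right of it, and no point is filled in the other comparisons.

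Complex IV, which reduces oxygen, held the largest single change, that of Cox6c. All 4 that fell encode subunits that surround the catalytic core. Cox6c had set values of -0.47, -1.20, -0.42 and -0.74 in sets 1 to 4. All were below 0, and set 2 was the lowest. The fitted change was -0.63 ± 0.15 (1.55-fold lower, limma adjusted p = 0.0499), just inside the threshold.

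Cox7c had set values of -0.21, -0.76, -0.48 and -0.70, and its change was -0.50 ± 0.09 (1.42-fold lower, limma adjusted p = 0.0206). Set 1 showed the smallest difference. Cox4i1, a subunit at which the complex is regulated by nucleotides, was read by 5 spots and had set values of -0.17, -0.44, -0.36 and -0.62. Its change was -0.39 ± 0.08 (1.31-fold lower, limma adjusted p = 0.0416).

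Cox6b2, an isoform best known from testis, had set values of -0.16, -0.80, -0.63 and -0.65 and a change of -0.53 ± 0.10 (1.44-fold lower, limma adjusted p = 0.0311). Here too set 1 was closest to 0. Cox6b1, the widely expressed isoform of the same subunit, had -0.04, -0.36, -0.31 and -0.05 and a change of -0.16 ± 0.08 (adjusted p = 0.335). The 2 isoforms lie side by side in the same mice, so their difference was set against its spread over sets. Cox6b2 lay below Cox6b1 in 4 of 4 sets, with a mean difference of -0.37 ± 0.20 (SD over 4 sets). The two-sided exact sign-flip permutation p was 0.125, the smallest that 4 sets allow (adjusted p = 0.375 over the 6 tests of 2 isoform pairs in 3 comparisons). Whether the clone of either gene also binds the other's transcript was not tested.

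The other complex IV subunits did not pass. Cox7b had a change of -0.41 ± 0.13 and Cox7a2 of -0.33 ± 0.11, and both were below 0 in all 4 sets. Cox6a1 (-0.07 ± 0.08), Cox5b (-0.01 ± 0.10) and Cox8a (0.00 ± 0.10) lay near 0. The 10 measured subunits thus ran from -0.63 to 0.00, with a median of -0.36. The isoforms Cox4i2, Cox6a2, Cox7a1 and Cox8b are not among the members, so nothing is known here of their change. Cox7a1 was named only together with another gene and was left out.

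Complex V makes ATP. Its 15 measured subunits had a median of -0.31, and 14 lay below 0. Atp5e, the epsilon subunit of the rotating central stalk, had set values of -0.27, -0.81, -0.26 and -0.67, all below 0. Its change was -0.46 ± 0.10 (1.38-fold lower, limma adjusted p = 0.0435, values on 10 arrays).

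The lowest fitted change of complex V was that of Atp5k, the e subunit of the membrane part (-0.57 ± 0.13, adjusted p = 0.0558). It did not pass, with set values of -0.34, -0.84, -0.25 and -0.99. The 4 membrane part genes Atp5k, Atp5l, Atp5md and Atp5mpl were each below 0 in all 4 sets, with changes from -0.57 to -0.30. In the peripheral stalk, which holds the head still, Atp5o was at -0.42 ± 0.11, Atp5h at -0.31 ± 0.08, Atp5pb at -0.19 ± 0.08 and Atp5j at -0.11 ± 0.11.

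The catalytic head stood closer to 0 than the membrane part. Atp5b, the beta subunit where ATP is formed, had a change of -0.20 ± 0.12. Atp5a1, the alpha subunit, was at -0.13 ± 0.15 with set values of 0.00, 0.10, -0.38 and -0.14, so its sets fell on both sides of 0. Atp5d, in the central stalk, was the only subunit of any complex above 0 (0.14 ± 0.17), with set values from -0.29 to 0.63. The difference between the parts of complex V was not tested.

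Atp5g1 and Atp5g3 encode the same mature c subunit of the rotor ring. Atp5g1 had a change of -0.26 ± 0.09 and Atp5g3 of -0.42 ± 0.19. The set values of Atp5g3 ran from 0.13 in set 1 to -1.16 in set 4. The difference between the pair was -0.15 ± 0.33 (SD over 4 sets, below 0 in 3 of 4, two-sided exact sign-flip permutation p = 0.625, adjusted p = 0.75).

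Complex III hands electrons to cytochrome c, and its 7 measured subunits lay between -0.50 and -0.26 with a median of -0.34. None was called, and the smallest adjusted p was 0.0814. Uqcr11, a small subunit, had set values of -0.53, -0.92, -0.32 and -0.42 and a change of -0.50 ± 0.13 (adjusted p = 0.0884). Uqcrb, a small subunit also known as the ubiquinone-binding protein, was at -0.41 ± 0.11 (adjusted p = 0.0814), with -0.15, -0.62, -0.24 and -0.74 in sets 1 to 4. Both genes were below 0 in every set. Uqcrh, the hinge protein, was at -0.35 ± 0.11, the core proteins Uqcrc1 and Uqcrc2 at -0.34 ± 0.11 and -0.26 ± 0.09, the Rieske iron-sulfur protein Uqcrfs1 at -0.31 ± 0.11 and cytochrome c1 (Cyc1) at -0.29 ± 0.13.

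Complex II is also an enzyme of the citric acid cycle. Its 4 subunits were below 0 in all 4 sets and none passed. Sdha, the flavoprotein that oxidises succinate, had set values of -0.19, -0.02, -0.60 and -0.71 and a change of -0.43 ± 0.11 (adjusted p = 0.0865). Sets 3 and 4 carried most of that difference. Sdhb, the iron-sulfur subunit, was at -0.25 ± 0.07, and the membrane anchors Sdhc and Sdhd at -0.23 ± 0.08 and -0.21 ± 0.11. Cytochrome c (Cycs), which also triggers apoptosis when it leaves the mitochondrion, was at -0.26 ± 0.10 (adjusted p = 0.226), with set values of -0.05, 0.00, -0.28 and -0.56.

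The 5 assembly and supercomplex genes had a median of 0.06 against -0.31 for the 37 subunits and cytochrome c, and that difference was not tested. Cox19 had set values of 0.54, 0.23, 0.37 and 0.36. It was higher in Dil hearts in every set, by 0.39 ± 0.06 (1.31-fold, limma adjusted p = 0.0143). Cox14, an assembly factor for the catalytic core, was at 0.08 ± 0.10, and the supercomplex factor Cox7a2l at 0.06 ± 0.07. Sdhaf2, which helps to attach flavin to Sdha, was at -0.08 ± 0.08. Cox10, an enzyme of haem A synthesis, was at -0.28 ± 0.10 (adjusted p = 0.173) and below 0 in all 4 sets.

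**Figure D2:**
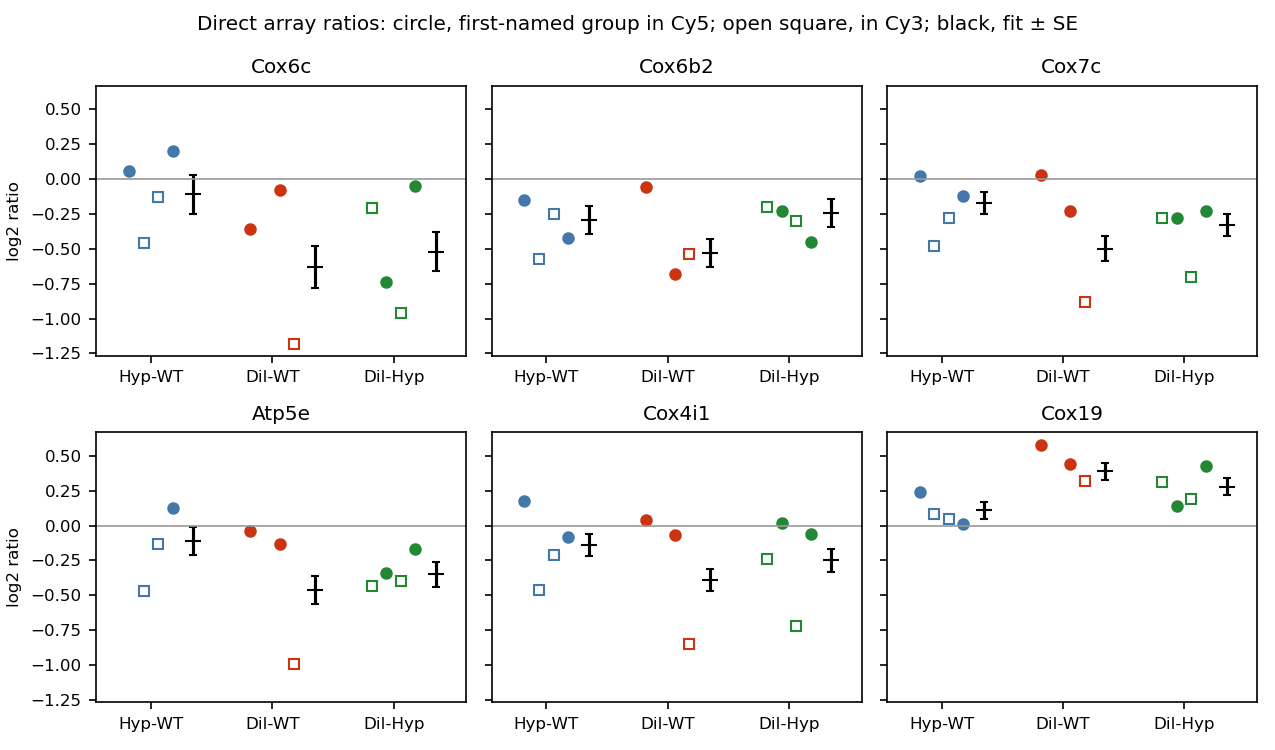
Log2 ratio (vertical axis) of each called gene on each array that compared the 2 groups directly, placed from left to right by set; filled circles have the group named before the dash in Cy5, open squares have it in Cy3, and black marks are the fitted change ± SE. Cox19 lies above 0 on all its arrays, and for Cox6c, Cox7c, Atp5e and Cox4i1 the lowest Dil and WT ratio is that of the array with Dil in Cy3.

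Sets were alike in direction and unlike in size. The median set value of the members in Dil minus WT was -0.15, -0.18, -0.27 and -0.45 in sets 1 to 4, with medians over all features between -0.01 and 0.00. Of the 42 members, 26 were below 0 in all 4 sets, against 11.9% of all features. Limma called 0 members without set 3, 0 without set 4, 1 without set 2 (Cox19) and 2 without set 1 (Cox7c and Cox6b2). The fitted changes without set 3 were -0.73 for Cox6c, -0.52 for Cox7c and 0.40 for Cox19, and 0 of all 12097 features were called there, with 1334 at an unadjusted p under 0.05. Without set 4 the members' median was -0.20. The cause of the lost calls was not tested. With the set as a block and its 4 set values as the data, limma called 0 members (adjusted p of the 6 genes from 0.106 for Cox6c to 0.132 for Atp5e), and with a term per set it also called 0.

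**Figure D3:**
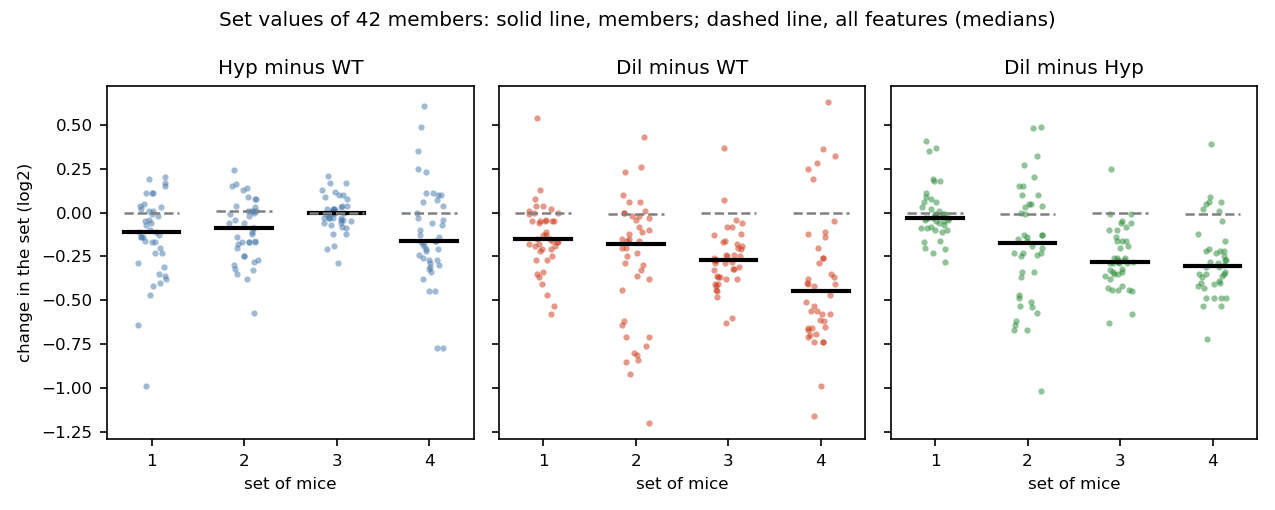
Change of each of the 42 genes in each set (points, log2) in the 3 comparisons; solid lines are medians of the members and dashed lines medians of all features. The members' median lies below 0 in all 4 sets in Dil minus WT and Dil minus Hyp, and at 0.00 in set 3 in Hyp minus WT.

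The dye moved with these genes. The fitted dye term, the log2 excess of Cy5 over Cy3 that is common to all arrays, had a median of 0.14 over the members and was above 0 for 35 of 42. Over all features the median was -0.01, with 45.5% above 0. On the direct Dil and WT arrays as deposited, the members' median was -0.04 and -0.13 with Dil in Cy5 (sets 1 and 3) and -0.69 with Dil in Cy3 (set 4). Only set 4 had Dil in Cy3, so on direct arrays alone dye and mice cannot be told apart.

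Each complete set forms a triangle, in which the Dil and WT difference can also be read as the sum of the arrays of Hyp with WT and of Dil with Hyp. In set 3 this holds only if the Hyp3 of both arrays, whose labelled indices differ, is the same mouse. In set 1 the WT1 and Hyp1 array was realigned by its correlation with the other arrays of the set, so its routes are not separate. As deposited, the direct and the indirect median of the members were -0.05 and -0.08 in set 1, -0.13 and -0.56 in set 3, and -0.69 and -0.04 in set 4. With the fitted dye term removed they were -0.17 and -0.08, -0.27 and -0.25, and -0.55 and -0.33. Every one of these medians was below 0, and in sets 3 and 4 the routes lay closer together after the dye term was removed. The dye term used here was fitted on the same arrays. Without a dye term the median of the members was -0.27 and 3 members were called. Only 2 of these, Cox19 and Cox6b2, were among the 6 reported. Cox7c, Cox6c, Atp5e and Cox4i1 were not called there (limma adjusted p from 0.0797 for Cox7c to 0.246 for Cox4i1).

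**Figure D4:**
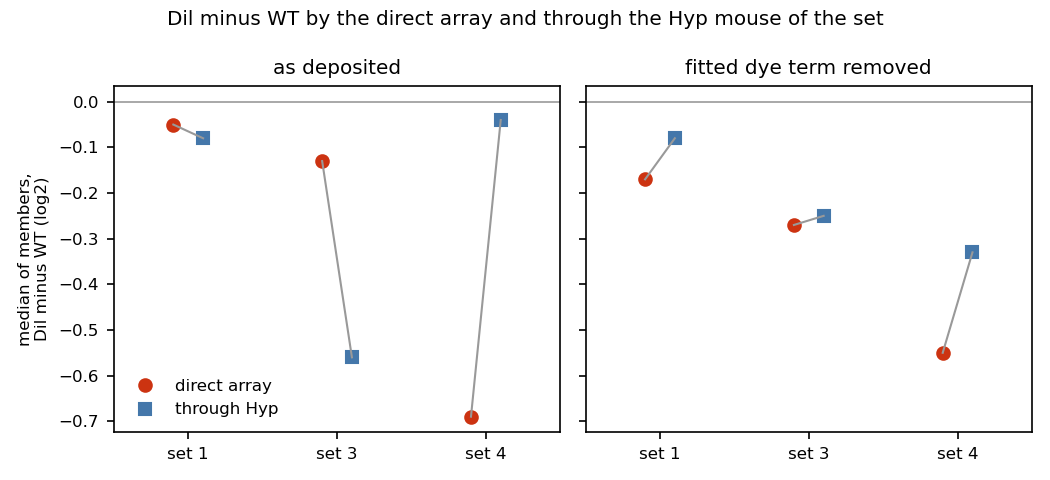
Median log2 change of the members in Dil minus WT for the 3 sets with all 3 arrays, by the direct array (circles) and through the Hyp mouse of the set (squares), as deposited (left) and with the fitted dye term removed (right). All medians are below 0, and the gap in sets 3 and 4 is smaller on the right.

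Genes read by several spots gave a check within arrays. Among the called genes, Cox6c, Cox6b2, Atp5e and Cox19 were read by 1 spot each, so it does not cover them. Fitted singly in Dil minus WT, the spots of Cox4i1 ran from -0.52 to -0.21 (limma adjusted p from 0.037 to 0.472). Those of Cox7c were at -0.54 and -0.47 (limma adjusted p = 0.0182 and 0.0448). In Dil minus WT, 24 members had 2 or more tested spots, and in 21 of them all spots lay below 0. Spots of a gene differed by a median of 0.13, and at most by 0.39 for Atp5c1. The signs differed between spots for Atp5a1, Cox7a2l and Cox8a, each of which had a mean near 0. These spots share the array and the RNA, so they are not replicates of a group.

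Hyp against WT hearts showed these genes in enlarged but undilated ventricles. No member was called, and neither was any feature (0.00% of 12097). Agt (2.09 ± 0.40, limma adjusted p = 0.871) and Nppb (1.02 ± 0.30, limma adjusted p = 0.9) were thus not called either. The lack of calls is therefore no sign that genes were unchanged in Hyp hearts. The members' median was -0.10, and 34 of 42 lay below 0. Without set 1 the median was -0.05 with 26 of 42 below 0, and with a term per set as replicate block it was -0.06 with 29 of 42. At an unadjusted p under 0.05 there were 2 members, where 533 of all features were, and the smallest adjusted p of limma among the members was 0.977. The set level block also called 0. In all, 5 members were below 0 in every set, against 5.99% of features, and the set medians were -0.11, -0.09, 0.00 and -0.16.

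Cox6b2 was among the lowest in Hyp hearts, with set values of -0.06, -0.57, -0.29 and -0.31 and a change of -0.29 ± 0.10. It lay below Cox6b1 (0.03 ± 0.08) in 4 of 4 sets, by a mean of -0.32 ± 0.23 (SD over 4 sets). The two-sided exact sign-flip permutation p was 0.125 (adjusted p = 0.375). In set 1 the difference was only -0.01, and Cox6b1 had no value on the WT1 and Hyp1 array. The WT mice are those of Dil minus WT, so this is no separate check of the pair. Atp5k was at -0.30 ± 0.13 and Atp5g3 at -0.30 ± 0.18, each below 0 in 3 of 4 sets. Cox7c was at -0.17 ± 0.08 and below 0 in all sets.

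By complex, the medians in Hyp minus WT were -0.08 for complex II, -0.13 for complex III, -0.04 for complex IV and -0.11 for complex V. The largest of complex III was Uqcrc1 (-0.22 ± 0.11), ahead of Uqcrb (-0.17 ± 0.10), and of complex II Sdha (-0.11 ± 0.11) and Sdhaf2 (-0.10 ± 0.07). Cycs was at -0.04 ± 0.09. Among assembly genes Cox14 was at 0.13 ± 0.09 and Cox19 at 0.11 ± 0.06, neither of which passed (adjusted p = 0.999 each).

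The sign of the members in Hyp hearts went with the dye on the arrays as deposited. Their median was 0.04 and 0.07 on the arrays with Hyp in Cy5 (sets 1 and 4), and -0.27 and -0.14 on those with Hyp in Cy3 (sets 2 and 3). With the dye term left out of the fit the median of the members was -0.07.

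Dilated and hypertrophic hearts, both from carriers, were compared to see what separates the heart shapes. No member passed, where 0.0248% of features were called lower and 0.141% higher. The members' median was -0.20, with 37 of 42 below 0. At an unadjusted p under 0.05 there were 21 members, against 1166 of all 12097 features, and the smallest adjusted p of limma was 0.0942, for Cox19. Of the 42, 16 were below 0 in all 4 sets, against 8.12% of features. The set medians were -0.03, -0.17, -0.28 and -0.30, with set 1 nearly at 0.

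Complex IV subunits held the lowest values between the carrier groups. Cox6c had set values of -0.09, -1.02, -0.63 and -0.49 and a change of -0.52 ± 0.14 (adjusted p = 0.202). Cox7b had -0.28, -0.34, -0.44 and -0.72, with a change of -0.45 ± 0.12 (adjusted p = 0.202). In Hyp minus WT Cox7b was at 0.04 ± 0.12. Its direct ratios there were 0.46 and 0.56 with Hyp in Cy5, and -0.28 and -0.07 with Hyp in Cy3. Both of its comparisons with Dil hearts were below 0, and neither passed (limma adjusted p = 0.122 in Dil minus WT). Cox7c was at -0.33 ± 0.08 and Cox4i1 at -0.25 ± 0.08.

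In complex V, Atp5e was at -0.35 ± 0.09 (adjusted p = 0.208) and Atp5md, a small membrane subunit, at -0.29 ± 0.11. Uqcr11 (-0.34 ± 0.13) and Uqcrh (-0.30 ± 0.11) were lowest in complex III, and Sdha (-0.31 ± 0.11) and Sdhb (-0.16 ± 0.07) in complex II. Cycs was at -0.22 ± 0.09. Cox19 had set values of 0.35, 0.10, 0.25 and 0.39 and a change of 0.28 ± 0.06, above 0 in every set, and Cox10 was at -0.22 ± 0.09. The 3 comparisons share mice and arrays, so their values are not independent of each other.

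By complex, the medians in Dil minus Hyp were -0.16 for complex II, -0.23 for complex III, -0.24 for complex IV and -0.20 for complex V, and 0.00 for the 5 assembly and supercomplex genes. On the arrays as deposited, the median was -0.04 and -0.09 with Dil in Cy5 (sets 2 and 4) and -0.10 and -0.42 with Dil in Cy3 (sets 1 and 3). It was below 0 on all 4 arrays.

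The neighbours of these complexes in energy metabolism were measured on the same arrays. For complex I, which takes electrons from NADH, 23 genes were listed as subunits by symbol, among them the pseudogene symbol Ndufs5-ps. Their median in Dil minus WT was -0.36, and 7 of them fell. They were Ndufa13 (-0.57 ± 0.09), Ndufv3 (-0.51 ± 0.10), Ndufb11 (-0.51 ± 0.11), Ndufb10 (-0.48 ± 0.11), Ndufa12 (-0.39 ± 0.09), Ndufs4 (-0.38 ± 0.08) and Ndufb7 (-0.35 ± 0.07), with limma adjusted p from 0.0133 to 0.0492. With the replicate block at set level none of the 7 was called (limma adjusted p from 0.0592 for Ndufb11 to 0.184 for Ndufb10). The 4 complex I assembly factors had a median of -0.26 with 0 called. A further list of 7 genes had a median of -0.13. Etfa, Etfdh and Gpd2 serve electron entry past complex I, and Coq3, Coq5, Coq8a and Coq9 serve ubiquinone synthesis. Only Etfdh fell, which delivers electrons from fatty acid oxidation (-0.57 ± 0.12, limma adjusted p = 0.0412). The set level block also ended that call (limma adjusted p = 0.115).

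Other mitochondrial lists lay closer to 0 than the subunits, and none of their genes passed. The median in Dil minus WT was -0.13 for 13 other respiratory assembly factors, -0.08 for 6 genes of ATP and phosphate export and -0.09 for 11 markers of mitochondrial mass. Among 15 regulators of mitochondrial genes the median was 0.05. The largest changes among them were those of the coactivator Ppargc1b (-0.42 ± 0.17, adjusted p = 0.246), the receptor Ppard (0.32 ± 0.31) and Tfb1m (-0.21 ± 0.08). Ppargc1a equalled Tfb1m as printed (-0.21 ± 0.17), with set values of 0.03, 0.37, -0.41 and -0.52. These lists were not tested against the members.

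Markers of cell types were measured beside them, with 0 genes called in any list in Dil minus WT. The 4 measured cardiomyocyte markers of 18 were Actn2 (0.46 ± 0.18), Ttn (0.08 ± 0.07), Ryr2 (-0.33 ± 0.12) and Atp2a2 (-0.47 ± 0.16), on both sides of 0. The median of 9 fibroblast markers was 0.22, with -0.10, 0.04, 0.54 and 0.45 in sets 1 to 4. It was highest in sets 3 and 4, in which the members' medians were lowest. The Dil and WT arrays of these sets also had the widest spread of ratios (0.335 and 0.354). A relation between the markers and the members was not tested. The 9 markers differed among themselves. Fn1, Col3a1, Col1a2 and Vim were at 0.82, 0.62, 0.56 and 0.41, and Col1a1 and Dcn at 0.22 and 0.19. Tcf21 (0.04 ± 0.06) and Lum (-0.05 ± 0.13) lay near 0, and Pdgfra (-0.20 ± 0.10) was below 0 in all 4 sets. Medians of the short lists were 0.02 (5 endothelial), -0.42 (3 smooth muscle), 0.30 (3 leukocyte), 0.22 (2 erythrocyte) and -0.14 (4 adipocyte), and 0 atrial markers were measured. The part of any of these cells in the members' values was not tested.

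Promoters of the members were examined because the genes lie in the same direction, for sites of factors known to act on respiratory genes. RefSeq windows (GRCm38.p6, 250 bases before to 50 after the annotated start) were at hand for 34 of the 42 members, in 37 windows. The stretches below are shown because they belong to 4 of the 6 called genes and to 3 members with a match to the NRF1 core. Each is 100 bases long and lies before the start, 5′ to 3′ on the gene's strand. The stretches begin 149 bases before the start for Atp5e, 208 for Cox6a1, 107 for Cycs and 100 for the others, and capitals mark matches on either strand to CGCATGCGC (NRF1 core) or CCGGAAG (ETS factors such as GABP).
Cox7c, chr13:86046796-86046895, minus strand: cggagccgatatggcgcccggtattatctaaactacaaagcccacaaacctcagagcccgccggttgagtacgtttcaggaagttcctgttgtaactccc
Cox6b2, chr7:4753095-4753194, minus strand: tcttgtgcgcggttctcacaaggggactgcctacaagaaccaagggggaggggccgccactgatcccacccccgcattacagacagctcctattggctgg
Atp5e, chr2:174464151-174464250, minus strand: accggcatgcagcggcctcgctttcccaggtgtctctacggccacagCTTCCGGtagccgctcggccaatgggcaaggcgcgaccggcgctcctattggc
Cox19, chr5:139345167-139345266, minus strand: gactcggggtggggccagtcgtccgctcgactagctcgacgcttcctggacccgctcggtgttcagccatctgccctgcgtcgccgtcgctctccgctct
Atp5k, chr5:108434400-108434499, minus strand: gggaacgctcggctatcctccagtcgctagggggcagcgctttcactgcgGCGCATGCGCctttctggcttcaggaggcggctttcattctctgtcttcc
Cox6a1, chr5:115349067-115349166, minus strand: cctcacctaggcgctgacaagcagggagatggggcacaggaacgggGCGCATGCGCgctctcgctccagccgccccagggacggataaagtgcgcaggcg
Cycs, chr6:50566577-50566676, minus strand: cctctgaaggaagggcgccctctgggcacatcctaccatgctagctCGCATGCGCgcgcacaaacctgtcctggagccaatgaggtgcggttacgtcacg

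In Atp5k and Cox6a1 the NRF1 core matches on both strands overlap in 1 run of capitals. The stretches of Cox7c, Cox6b2 and Cox19 hold none of the motifs. The NRF1 core was present in 16.2% of the members' windows and in 1.75% of all 32851 windows. CCGGAAG was in 43.2% against 8.86%, TCAAGGTCA, the site of oestrogen-related receptors (ERR), in 5.41% against 0.423%, and AAGATGGC (YY1) in 8.11% against 2.75%. Windows of other genes on the array held the motifs in 4.06%, 19.6%, 0.229% and 5.25% of genes, against 17.6%, 47.1%, 5.88% and 8.82% of members. Both strands were searched, and a match is a run of letters and no shown site.

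The changes of members were set beside the matches. In Dil minus WT the median was -0.32 for the 6 members with the NRF1 core (Atp5k, Atp5l, Cox6a1, Cycs, Uqcr11 and Uqcrc1) and -0.27 for those without. For CCGGAAG it was -0.26 with a match, in 16 members, and -0.32 without. The receptor motif was found in Atp5g3 and Sdhd (-0.32 with, -0.29 without), and the YY1 motif in 3 members (-0.19 with, -0.31 without). These medians are descriptions, and their differences were not tested.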

How the data were processed

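Ventricular RNA of 12 mice was compared on 11 cDNA arrays with 2 colours, 1 mouse per dye per the labels. The deposited values are log ratios of the dyes per spot and were taken as log2. Their log base, the background correction and normalization were not given in the sources used here. Natural logarithms would make every fold printed here too small. Spot brightness was not used. The depth per spot is thus unknown, and the number of arrays limits precision. Separate mice make up the groups. Per the labels, RNA was copied from an oligo(dT) primer. The arrays bear a public embryonic clone set and custom clones.

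Each array had 17207 values of 17664 spots. The column of WT1 and Hyp1 was displaced. On it, 11520 spots were moved by 8 print blocks, and 3840 spots were left without a value. The correlation with the other arrays of set 1 rose from 0.492 to 0.810. Groups of spots were moved where this same correlation was higher after the move, so its rise is no separate check. Control spots (736) were left out, 12563 spots had 1 gene symbol, and spots of a gene were averaged. A feature needed values on 9 arrays, which left 8106 genes and 3991 unnamed spots. Per feature, generalised least squares with terms for Hyp, Dil and the dye and mice as random effects (variance ratio 0.303) were moderated with limma 3.58.1 in R 4.3.3 and adjusted by Benjamini-Hochberg. Mice are paired by set through the arrays, each of which compares mice of the same number, so differences between sets cancel within a ratio. Members named were those called, the 2 largest of each complex in each comparison, isoform pairs and those whose spots differ in sign (25 in all). From other lists, genes that passed and the 3 largest regulators were named, with Ppargc1a, which equalled Tfb1m as printed. The members and lists were chosen with earlier results of these data known. The fit was tested on simulated data. Alternatives changed the dye term, mouse effect, array spread, print block centring, the WT1 and Hyp1 array, the arrays and spots used, the number of arrays required and the replicate block, and left out each set.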

Additional observations from a re-analysis of the deposited data

Results flagged for a closer look

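In 2 of 78 groups of 4 set values, 1 set lay far from the other 3, where chance gives about 1 in 20. Cox14 in Hyp minus WT was at 0.49 in set 4, with the other sets between -0.03 and 0.03. Cox7a2l in Hyp minus WT was at 0.23 in set 4, with the other sets between -0.03 and 0.01. Neither gene was called in any comparison.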

How the results depend on the processing

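The members' medians kept their sign in all 3 comparisons under all alternatives run, and in Dil minus WT the median ran from -0.39 (direct arrays only) to -0.20 (without set 4). In Hyp minus WT it ran from -0.11 to -0.05 and in Dil minus Hyp from -0.27 to -0.15. The count of called members in Dil minus WT, 6 as reported, was 3 without a dye term, 10 without a mouse effect, 0 with arrays scaled to the same spread, 3 with the WT1 and Hyp1 array left out, 0 from direct arrays only, 0 with the replicate block (a term per set) and 0 with the replicate block at set level. Of the 3 called without a dye term, 2 were among the 6. Leaving out 1 set gave 0 to 2 calls. With the array of WT4 and Dil4 left out, an alternative chosen after seeing the data, it was 0, with a median of -0.23 and 39 of 42 below 0. The other alternatives gave 5 to 7. Over all features, calls in Dil minus WT numbered 260, against 99 with equal array spread, 159 with the WT1 and Hyp1 array left out, 7 from direct arrays, 15 with a term per set, 6 at set level, 29 without the WT4 and Dil4 array, and 121, 80, 0 and 12 without sets 1 to 4. In Dil minus Hyp they numbered 20, and 0 to 52 elsewhere. The 6 called genes kept their sign in every alternative. Of 18 alternatives, 10 kept the call for Cox19 and Cox6b2, 9 for Cox7c, 6 for Cox4i1 and 5 for Cox6c. For Atp5e it was 6 of 17. Some of these could change little. Requiring 6 arrays gave the same 12097 features and 260 calls as the fit reported. Cox19, Cox6b2, Cox6c and Atp5e had 1 spot each, so the median of spots and single spots left their values as they were. The cause of the lost calls was not tested.

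Of 1341 refitted changes of named members, 26 turned sign, none of them called. In Hyp minus WT, Atp5a1 was at 0.20 with single spots, 0.05 with a term per set as replicate block and -0.17 to 0.15 with 1 set left out. Cycs was at 0.02 with scaled arrays, 0.05 from direct arrays, 0.04 with the median of spots, 0.10 with a term per set and 0.02 without the WT4 and Dil4 array. Cox10 was at 0.04 with single spots and 0.02 without that array, Uqcrh at 0.01 without it, Cox7b at -0.06 without realignment, and with a term per set Atp5md was at 0.01 and Sdha at 0.02. In Dil minus WT Atp5a1 was at 0.05 and in Dil minus Hyp Sdhaf2 at -0.02 with single spots. With 1 set left out, the lowest and highest values in Hyp minus WT were -0.12 and 0.07 for Atp5md, -0.12 and 0.04 for Cox10, -0.01 and 0.08 for Cox7a2l, -0.07 and 0.01 for Cycs, -0.24 and 0.05 for Uqcr11 and -0.13 and 0.02 for Uqcrh. They were -0.01 and 0.10 for Cox7a2l in Dil minus WT, and -0.30 and 0.01 for Atp5a1 and -0.05 and 0.09 for Sdhaf2 in Dil minus Hyp. The ratios hold no signal over background, so what dim spots limit was not analysed here.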
